A study of Homo sapiens with 36 samples.

Results

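HEMGN, FAM178B, EGFL7, SMIM10, SLC39A8 and GPD1L are 6 human genes whose RNA was far lower after loss of LMO2, LDB1 or TAL1, partners in a single protein complex, in at least 1 set of leukaemia cell libraries. They were selected on those changes in RNA level (K562 FPKM after dTAGv1, HEL counts and K562 TPM with LDB1 shRNAs), so the falls themselves are given here as a description without a test. All 6 stand in each of the 3 deposited tables, among 60642 genes in the K562 degron table, 57820 in the HEL table and 13707 in the K562 LDB1 table, and all 6 passed the filters on low values. The choice used no threshold. K562 is a line with erythroid features from a chronic myeloid leukaemia, and HEL is an erythroleukaemia line. The K562 degron set holds 24 libraries. They come from degron line 1 and degron line 2 (a reading of the labels' LMO2 degron rep 1 and rep 2), a further line named LMO2 control, and parental K562, each sampled before dTAGv1 (day 0) and after 1 and 4 days of it (750 uM in the labels), with bio reps 1 and 2 at each day. dTAGv1 joins a degron-tagged protein to a ubiquitin ligase, which marks that protein for breakdown. The labels do not say whether a degron line is 1 clone or which construct LMO2 control cells hold. The HEL set holds 9 libraries, 3 electroporated with TAL1 siPool 1, 3 with TAL1 siPool 2 and 3 with a non-targeting siRNA pool. The LDB1 set holds 3 K562 libraries, 1 with each of 2 LDB1 shRNAs and 1 with a control shRNA. The labels do not say whether bio reps are separate cultures, so p-values measure only the spread between these samples.

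LMO2 is an adaptor without DNA contact of its own that holds TAL1, an E-box binding factor, and GATA factors together in blood cells. LDB1 binds LMO2 and pairs such assemblies with one another, which can bring distant enhancers to promoters. In erythroid cells this complex is known for driving red cell genes, several of which carry an E-box next to a GATA motif.

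The promoters of the 6 genes are shown because the complex is known for GATA and E-box motifs. RefSeq (GRCh38.p14) lists 11 promoters for them, and the 250 bases before each start were searched on both strands for the GATA motif in its forms AGATAA or TGATAA, with AGATAG or TGATAG also counted. Such a motif stood in 7 of the 11 promoters, from 4 of the 6 genes, against 22.3% of the 35116 promoters in the whole table. A match describes the sequence and does not show binding. Each sequence below reads 5′ to 3′ along the gene, with the GATA motif of either strand in capitals. In the first line, a CTG is also in capitals: it stands before the GATA, at a spacing of 7 to 10 bases, and 3.58% of all promoters have such a pair. Among the 11 promoters this one alone had it.
HEMGN promoter 1, first site (chr9:97938310-97938339, minus strand): acCTGtgcagtgTGATAAAGATAGtagaat
HEMGN promoter 1, second site (chr9:97938269-97938298, minus strand): tgtggtccaaccAGATAAaacttttaggcg
HEMGN promoter 2 (chr9:97944853-97945102, minus strand): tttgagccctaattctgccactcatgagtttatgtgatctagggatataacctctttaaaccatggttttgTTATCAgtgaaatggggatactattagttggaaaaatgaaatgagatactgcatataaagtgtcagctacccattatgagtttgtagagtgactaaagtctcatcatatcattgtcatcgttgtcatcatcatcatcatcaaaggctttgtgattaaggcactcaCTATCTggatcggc
FAM178B promoter 1 (chr2:96895169-96895418, minus strand): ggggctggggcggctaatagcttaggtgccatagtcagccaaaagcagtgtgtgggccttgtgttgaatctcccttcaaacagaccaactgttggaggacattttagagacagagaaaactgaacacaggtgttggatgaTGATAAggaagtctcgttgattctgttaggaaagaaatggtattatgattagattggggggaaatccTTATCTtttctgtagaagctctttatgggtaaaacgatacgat
FAM178B promoter 2, site (chr2:96898144-96898173, minus strand): gctggagaaatcCTATCAatcgattcactg
EGFL7 promoter 2 (chr9:136662666-136662915, plus strand): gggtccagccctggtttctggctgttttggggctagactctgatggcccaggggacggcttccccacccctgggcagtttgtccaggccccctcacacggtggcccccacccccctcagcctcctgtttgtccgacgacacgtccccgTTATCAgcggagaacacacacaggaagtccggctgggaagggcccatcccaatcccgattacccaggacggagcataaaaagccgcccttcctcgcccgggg
SLC39A8 promoters 1 and 2, shared site (chr4:102345338-102345367, minus strand): agacaaacaaacAGATAGgagaggtgagag
Of the 250 bases before the first HEMGN start, 221 lie in annotated exons, as do both sites shown from it in full and 23 of the 30 bases of the SLC39A8 site. HEMGN had 3 motifs in its first promoter (2 of them side by side in the first line) and 2 in its second, and FAM178B had 2 and 1. EGFL7 had none in its first promoter and 1 in its second. The first 2 SLC39A8 promoters overlap and hold the same motif. The single promoters of SMIM10 (chromosome X) and GPD1L (chromosome 3) had no such letters in this window. The general E-box CANNTG stood in 61.8% of all promoters and CAGNTG in 42.5%, so both letter patterns are common. Among the 11 promoters, CANNTG stood only in HEMGN promoter 1, FAM178B promoters 1 and 2, SLC39A8 promoter 3 and those of SMIM10 and GPD1L. CAGNTG stood only in HEMGN promoter 1, FAM178B promoter 1 and the GPD1L promoter. Neither pattern was in the other promoters of these genes or in those of EGFL7.

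K562 degron libraries held 17196715 to 26321576 reads as recovered from the FPKM, HEL libraries 15869619 to 27029836 counts, while the LDB1 table holds no counts and its depth is unknown. TAL1 RNA checked the HEL labels. It averaged 179 ± 12.8 CPM (counts scaled to library size) with siPool 1 and 188 ± 7.83 CPM with siPool 2, against 466 ± 26.2 CPM in non-targeting libraries (SD, n = 3 each), and fell with both pools (edgeR adjusted p = 5.41e-06 and 1.03e-05). LDB1 stood at 62.4 and 69.6 TPM (transcripts, scaled to length and library size) with the LDB1 shRNAs, against 468 TPM with the control shRNA. A degron removes protein, so LMO2 RNA cannot check the degron labels. As markers of the labelled cells, 3 erythroid genes (HBG1, HBG2 and GATA1) summed to 170.0 to 297 FPKM in the degron lines on day 0, 147 to 170.0 on day 1 and 88.8 to 110.0 on day 4, against 221 to 464, 250 to 484 and 252 to 370.0 FPKM in the control lines. In HEL the same sum was 1010 to 1370 CPM with siPool 1, 1350 to 1510 CPM with siPool 2 and 2300 to 2650 CPM with the non-targeting pool. The marker sum was lower in degron lines on days 1 and 4 and with both TAL1 pools, and the part of this in the results below was not tested. In bulk RNA, fewer cells of a type and less RNA per cell cannot be told apart.

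HEMGN encodes hemogen, a nuclear protein of blood cell precursors that is known to bind GATA1 and the acetyltransferase p300. In bio reps 1 and 2 of degron line 1, it stood at 53.8 and 30.2 FPKM (fragments scaled to length and library size) on day 0, at 4.16 and 7.37 on day 1 and at 1.93 and 1.80 on day 4. Degron line 2 had 23.5 and 12.5 FPKM on day 0, 1.45 and 1.54 on day 1, and 1.27 and 0.807 on day 4. All libraries of days 1 and 4 lay below all libraries of day 0 in both lines. The LMO2 control line had 171 and 90.5 FPKM on day 0, 88.1 and 77.2 on day 1, and 152 and 53.4 on day 4. Parental cells had 245 and 57.2 on day 0, 213 and 48.1 on day 1, and 220.0 and 52.3 on day 4. Every degron library, day 0 included, lay below every control-line library of its day. Between the parental bio reps HEMGN differed by 4.21-fold to 4.43-fold on each of the 3 days. Relative to day 0, the mean was 7.29-fold lower on day 1 and 22.5-fold lower on day 4 in line 1, and 12-fold and 17.3-fold lower in line 2.

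FAM178B is a little studied gene related to SLF2, a factor that brings the SMC5/6 complex to DNA damage. Its levels in degron line 1 were 45.0 and 16.2 FPKM on day 0, 8.19 and 3.6 on day 1, and 1.13 and 0.694 on day 4. In degron line 2 they were 20.2 and 8.72 FPKM, then 3.01 and 1.76, then 1.28 and 0.712. The decline continued between days 1 and 4 in both lines and both bio reps. In the LMO2 control line FAM178B stood at 102 and 82.8 FPKM on day 0, 137 and 65.4 on day 1, and 105 and 39.1 on day 4. Parental cells had 216 and 60.3, then 175 and 103, then 175 and 109. The control lines showed no common direction: bio rep 2 of LMO2 control fell 2.12-fold by day 4 while bio rep 2 of parental cells was 1.81 times its day 0 level. The day 4 mean was 33.4-fold lower than on day 0 in line 1 and 14.5-fold lower in line 2, where day 0 was already lower.

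EGFL7 encodes a secreted protein known from growing blood vessels, and its intron holds the microRNA gene MIR126. It also overlaps the antisense gene HSPC324 in GENCODE, and no source used here states the strand setting of the counting, so reads of these genes cannot be told apart. Degron line 1 had 169 and 149 FPKM on day 0, 73.5 and 88.1 on day 1, and 49.6 and 19.8 on day 4. Degron line 2 had 281 and 173 FPKM on day 0, 62.7 and 59.5 on day 1, and 47.2 and 18.9 on day 4. All degron libraries of day 4 lay below those of day 1, which lay below those of day 0. In the LMO2 control line EGFL7 stood at 112 and 136 FPKM on day 0, 100 and 141 on day 1, and 182 and 172 on day 4. Parental cells had 39.9 and 54.9 FPKM on day 0, 36.2 and 114 on day 1, and 63.4 and 109 on day 4. Here the starting point differed from the other genes: on day 0 every degron library was above every control-line library, and on day 4 every one was below. The mean was 4.59-fold lower on day 4 than on day 0 in line 1 and 6.88-fold lower in line 2. By the same measure it was 1.43 times its day 0 level in LMO2 control cells and 1.81 times in parental cells.

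SMIM10 encodes a small integral membrane protein of unknown role on chromosome X. It was at 8.80 and 10.5 FPKM in degron line 1 on day 0, 5.17 and 7.02 on day 1, and 4.57 and 6.52 on day 4. In degron line 2 it was at 8.92 and 9.06, then 5.24 and 6.74, then 3.39 and 4.77 FPKM. Day 1 and day 4 overlapped with each other, and both lay below day 0. The LMO2 control line had 20.4 and 20.9 FPKM on day 0, 12 and 25.3 on day 1, and 22 and 25.6 on day 4, and parental cells had 13.5 and 10.8, then 12.4 and 13.5, then 11.7 and 15. Degron libraries lay below control-line libraries on every day. The day 4 mean was 1.74-fold lower than on day 0 in line 1 and 2.20-fold lower in line 2.

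SLC39A8 (ZIP8) imports zinc and manganese into cells. In degron line 1 it stood at 5.48 and 5.5 FPKM on day 0, 2.43 and 3.50 on day 1, and 1.68 and 1.94 on day 4. Degron line 2 was lower from the start, with 1.80 and 1.88 FPKM on day 0, 0.769 and 1.11 on day 1, and 0.354 and 0.481 on day 4. The line 1 values of day 4 overlapped with the line 2 values of day 0, so the pooled degron libraries of day 4 and day 0 overlapped although each line fell. LMO2 control cells had 16.4 and 13.8 FPKM on day 0, 14.0 and 12.5 on day 1, and 14.0 and 11 on day 4. Parental cells had 12 and 7.99, then 11.9 and 8.12, then 10.6 and 8.51 FPKM. Both stayed above every degron library. The day 4 mean was 3.03-fold lower than on day 0 in line 1 and 4.4-fold lower in line 2, where 47 and 67 recovered reads lie behind the day 4 values.

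GPD1L encodes a relative of glycerol 3-phosphate dehydrogenase, an enzyme between glycolysis and lipid synthesis. Degron line 1 had 7.54 and 6.33 FPKM on day 0, 4.37 and 3.59 on day 1, and 3.91 and 5.11 on day 4. Degron line 2 had 6.28 and 5.11 FPKM, then 2.67 and 3.27, then 2.58 and 3.37. The mean of line 1 was 1.74-fold below day 0 on day 1 and 1.54-fold on day 4, and that of line 2 was 1.92-fold and 1.91-fold below, so neither line went lower after day 1. LMO2 control cells had 6.16 and 4.92, then 6.65 and 4.62, then 5.66 and 5.15 FPKM, and parental cells 6.03 and 5.60, then 5.76 and 5.09, then 6.76 and 6.08. On day 0 GPD1L overlapped between degron and control lines, and on days 1 and 4 every degron library was below every control-line library.

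**Figure D1:**
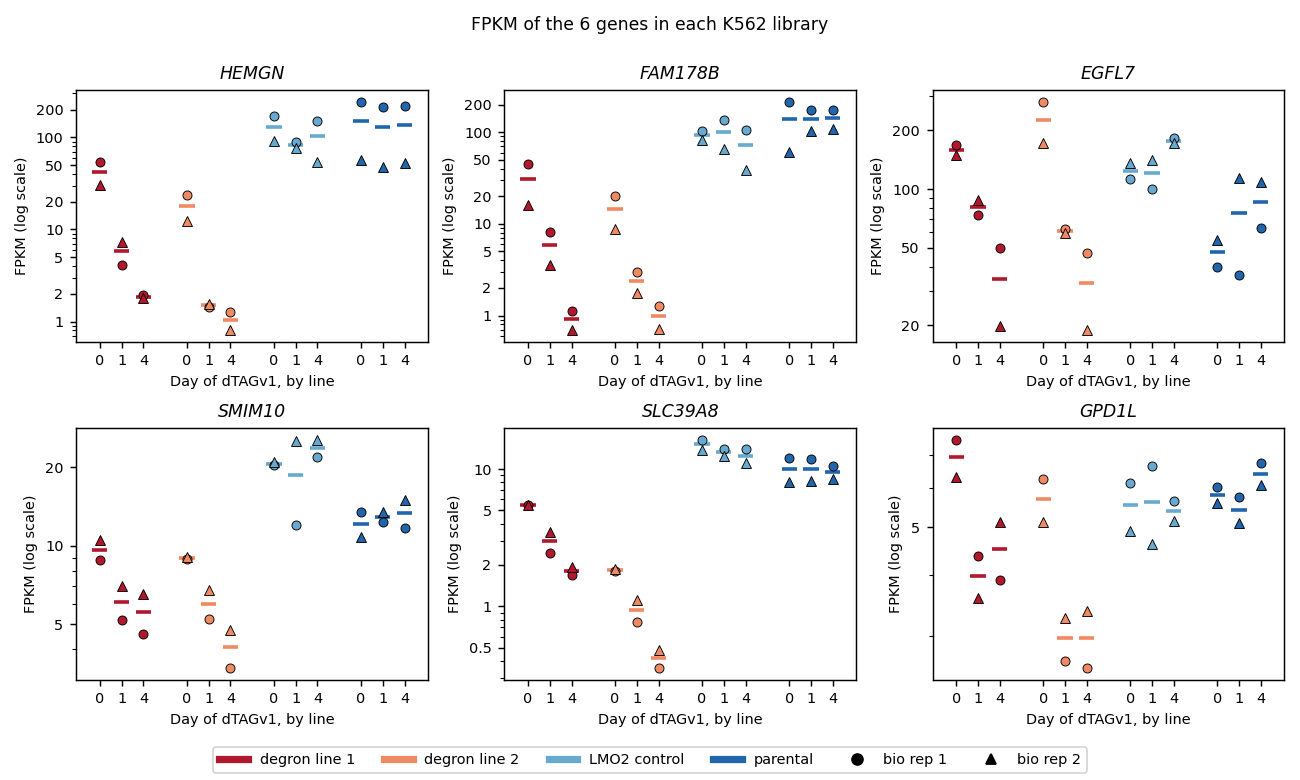
FPKM (log axis) of the 6 genes in the 24 K562 libraries, by line (colour) and day; circles are bio rep 1, triangles bio rep 2 and bars the mean of both. HEMGN and FAM178B drop to between 0.694 and 1.93 FPKM in the degron lines on day 4, and EGFL7 starts above the control lines on day 0 and ends below them.

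For each gene, the average change of log2(FPKM + 1) since day 0 in LMO2 control and parental cells was subtracted from that in both degron lines, in a limma fit over 15348 genes, and is called the degron-specific change. On day 1 it was -2.35 ± 0.79 (SE) for HEMGN, -2.25 ± 0.65 for FAM178B, -1.60 ± 0.51 for EGFL7, -0.68 ± 0.18 for GPD1L, -0.55 ± 0.20 for SLC39A8 and -0.49 ± 0.27 for SMIM10. On day 4 it was -3.26 for FAM178B, -3.24 for EGFL7, -3.21 for HEMGN, -1.01 for SMIM10, -0.96 for SLC39A8 and -0.69 for GPD1L, with the same errors. The 3 genes with the most negative values were thus FAM178B, EGFL7 and HEMGN on both days. The pseudocount of 1 FPKM makes the change of low genes smaller: edgeR on recovered reads gave -4.4 for FAM178B, -4.16 for HEMGN, -3.27 for EGFL7, -1.79 for SLC39A8, -1.22 for SMIM10 and -0.91 for GPD1L on day 4, so the order within the first 3, and of SLC39A8 and SMIM10, depends on the scale. Among all 15348 genes ordered from the lowest change, FAM178B, EGFL7 and HEMGN stood at places 5, 6 and 7 on day 4, and SMIM10, SLC39A8 and GPD1L at 490, 580 and 1293. The median over the 6 genes was -1.14 on day 1 and -2.11 on day 4, beside 0.03 and 0.06 over all tested genes. Across both lines, 5 of the 6 had all degron libraries of day 1 below those of day 0, a pattern that 5.28% of all tested genes had, and 4 of 6 had it for day 4, beside 14.1% of all. These medians and counts follow from the choice of the genes and nothing is read from them. The count of libraries in order is by FPKM, and GPD1L and SLC39A8 are the 2 that overlapped on day 4. For days 1 and 4, the share of all genes with degron libraries wholly apart from control-line libraries was not counted. Nothing is read from that separation where it is given for a gene.

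Before any dTAGv1, the genes already differed between degron and control lines. On the log2 scale the degron lines minus the control lines on day 0 gave -2.36 ± 0.46 for FAM178B, -2.16 ± 0.56 for HEMGN, -1.62 ± 0.14 for SLC39A8 and -0.71 ± 0.19 for SMIM10. It gave 1.29 ± 0.36 for EGFL7 and 0.13 ± 0.12 for GPD1L. So 4 genes started lower, with no overlap between the groups (5.94% of all genes had this), EGFL7 started higher and GPD1L overlapped. For the 4 genes the change after dTAGv1 added to this difference, and for EGFL7 it turned the difference round.

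The response of degron line 2 minus that of line 1 on day 4 rests on the same degron libraries whose falls chose the genes, so it is given as a description. Of all 15348 genes 2 passed (limma, 0.013%), or 4 with bio rep as a block. For the 6 genes the differences were 1.03 ± 0.92 for FAM178B, 0.69 ± 1.11 for HEMGN, 0.21 ± 0.29 for SLC39A8, -0.22 ± 0.25 for GPD1L, -0.27 ± 0.38 for SMIM10 and -0.54 ± 0.73 for EGFL7. For HEMGN and FAM178B the errors are about as large as the differences, so these values do not show that the lines responded alike.

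LMO2 control cells minus parental cells on day 0 was tested. The same libraries entered the degron-specific change, there as the average of both lines, while this test takes their difference. Since they had a part in the choice of the 6 genes, no conclusion on these genes is drawn from it. LMO2 RNA itself was at 248 and 252 FPKM in LMO2 control cells, against 32.3 to 37.2 FPKM in parental cells, and was higher by 2.81 ± 0.34 on the log2 scale (limma adjusted p = 0.000232). None of the 6 genes passed: EGFL7 had 1.38 ± 0.51 (adjusted p = 0.279), SMIM10 0.73 ± 0.27 (0.266) and SLC39A8 0.57 ± 0.20 (0.250). HEMGN (0.07 ± 0.79), FAM178B (-0.31 ± 0.65) and GPD1L (-0.06 ± 0.18) had adjusted p = 0.984 to 1.0. By comparison 280 of 15348 genes passed (1.82%), or 711 with bio rep as a block, and again none of the 6 was among them. For EGFL7, SMIM10 and SLC39A8 both day 0 libraries of LMO2 control cells were above both parental ones, and the difference did not exceed the spread by this test. The share of all genes with this order was not counted, and with 2 libraries per line nothing is read from it.

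In HEL cells HEMGN stood at 34.7, 36.3 and 29.2 CPM with TAL1 siPool 1 and at 54.2, 55.6 and 56.1 CPM with siPool 2, against 78.0, 94.5 and 92.2 CPM with the non-targeting pool. The 3 groups did not overlap. The means, 33.4 ± 3.73 and 55.3 ± 0.965 CPM against 88.2 ± 8.92 CPM (SD, n = 3), were 2.64-fold and 1.59-fold lower with siPool 1 and siPool 2. SMIM10 was at 8.82, 6.64 and 7.60 CPM with siPool 1 and 13.5, 12.5 and 10.5 CPM with siPool 2, against 15, 16.7 and 15.4 CPM. It too was in separate ranges, lowest with siPool 1. GPD1L stood at 19.1, 17.3 and 18.3 CPM with siPool 1 and 23.4, 15.1 and 19.4 CPM with siPool 2, against 29.4, 26.5 and 29.4 CPM, so both pools lay below the non-targeting libraries and overlapped with each other. SLC39A8 was at 126, 144 and 140.0 CPM with siPool 1 and 140.0, 138 and 133 CPM with siPool 2, against 174, 177 and 166 CPM. Its values lay below the non-targeting range in both pools, by 1.26-fold for each.

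FAM178B had few reads in HEL. It had 0, 5 and 0 counts with siPool 1 and 2, 4 and 4 counts with siPool 2, against 18, 19 and 12 counts with the non-targeting pool. The sums were 5 (exact Poisson 95% interval 1.62 to 11.7, counting error only), 10 (4.80 to 18.4) and 49 (36.3 to 64.8). FAM178B passed the filter only through its non-targeting libraries, so a fall was built into its being tested. EGFL7 overlapped between the groups, with 74.6, 93.1 and 82.2 CPM for siPool 1 and 71.5, 95.4 and 112 CPM for siPool 2, against 78.9, 120.0 and 109 CPM. Of the 6 genes it alone did not separate from the non-targeting libraries in either pool. For siPool 1 and siPool 2, 5 of 6 genes lay wholly below those libraries, beside 11.7% and 8.62% of the 16688 tested genes. These counts include FAM178B and follow from the choice of the genes, and nothing is read from them.

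**Figure D2:**
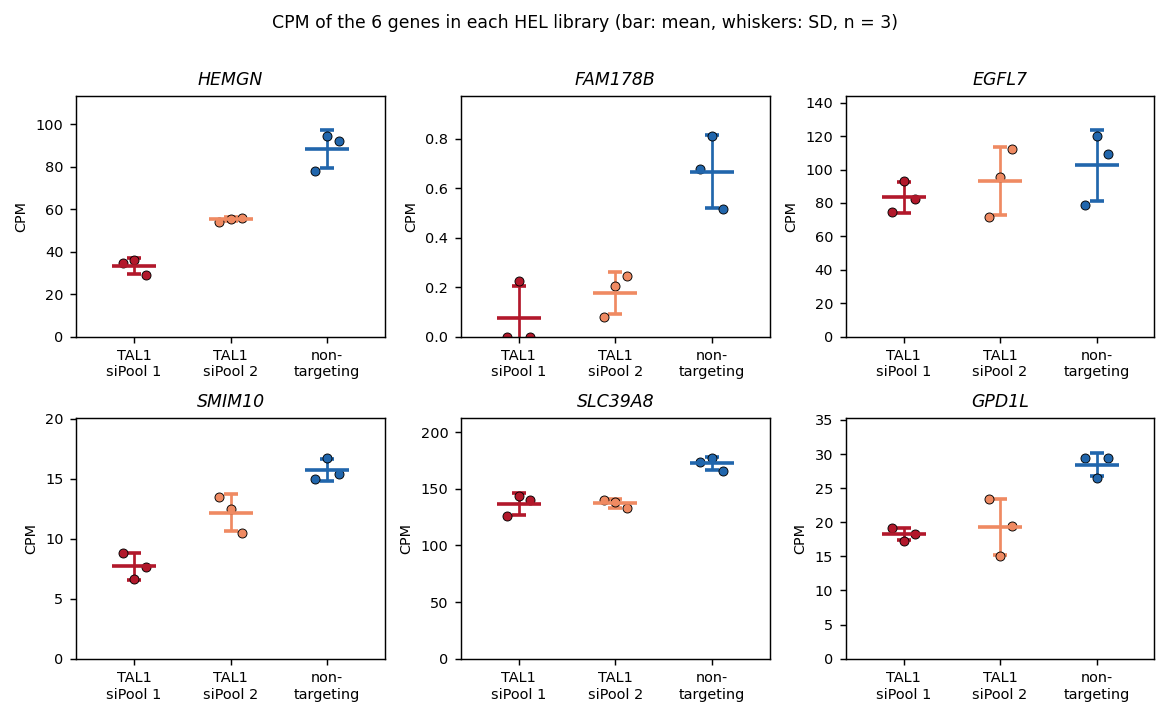
CPM of the 6 genes in the 9 HEL libraries (points), with the mean (bar) and SD (whiskers, n = 3 per group; the lower whisker of FAM178B with siPool 1 ends at the axis). HEMGN and SMIM10 are lower with siPool 1 than with siPool 2, and EGFL7 overlaps across the groups.

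On the log2 scale of the edgeR fit, TAL1 siPool 1 minus non-targeting was -3.05 ± 0.88 (SE) for FAM178B, -1.40 ± 0.11 for HEMGN, -1.03 ± 0.15 for SMIM10, -0.64 ± 0.14 for GPD1L, -0.34 ± 0.08 for SLC39A8 and -0.30 ± 0.18 for EGFL7. For siPool 2 the values were -1.95 ± 0.80, -0.67 ± 0.11, -0.36 ± 0.15, -0.56 ± 0.14, -0.33 ± 0.08 and -0.14 ± 0.18 in the same order of genes. Without replicate 2 of siPool 1, which holds all 5 FAM178B counts of that pool, the fitted FAM178B value was -6.90, so its size rests on that library. The median of the 6 genes was -0.83 with siPool 1 and -0.46 with siPool 2, beside -0.02 and -0.01 over all genes. These medians include FAM178B and follow from the choice of the genes, and nothing is read from them.

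The difference between the pools, siPool 1 minus siPool 2, rests on the same siPool libraries whose falls chose the genes, so it too is given as a description. The difference was -0.73 ± 0.11 (SE) for HEMGN and -0.67 ± 0.15 for SMIM10, both with all 3 siPool 1 libraries below all 3 of siPool 2. The share of all genes with this order of libraries was not counted, so nothing is read from it. The pool difference was -1.10 ± 1.05 for FAM178B, -0.16 ± 0.18 for EGFL7, -0.08 ± 0.14 for GPD1L and -0.00 ± 0.08 for SLC39A8, each no larger than about its error. Of all genes 2.76% passed in this comparison (edgeR), 1.08% in the lower direction. TAL1 itself differed by -0.07 ± 0.08 between the pools (adjusted p = 0.746), while the erythroid marker sum overlapped between them.

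With LDB1 shRNA 1 and shRNA 2, HEMGN stood at 53.1 and 98.6 TPM, against 349 TPM with the control shRNA. FAM178B, the most abundant of the 6 in the control library, was at 79.6 and 105 TPM against 817 TPM, 10.3-fold and 7.77-fold lower. GPD1L was at 3.48 and 3.84 TPM against 18.2 TPM, 5.22-fold and 4.73-fold lower. SLC39A8 had 12.1 and 12.8 TPM against 39.8 TPM, and SMIM10 had 23.9 and 21.9 TPM against 58.2 TPM. Both shRNA libraries were below the control for these 5 genes. EGFL7 went the other way, with 147 and 132 TPM against 103 TPM, 1.43 and 1.28 times the control. With 1 library per group there is no replicate check and no test. At least 2-fold lower in both libraries were 5 of the 6 genes, and 275 of 12445 genes overall (2.21%). Median log2 ratios of (TPM + 1) over the 6 genes were -1.87 and -1.69, beside 0.18 and 0.13 over all genes. This count and these medians follow from the choice of the genes, and nothing is read from them. LMO2 RNA was also lower with the LDB1 shRNAs (44.2 and 46.2 TPM against 131 TPM), while TAL1 RNA was at 105 and 103 TPM against 102 TPM.

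**Figure D3:**
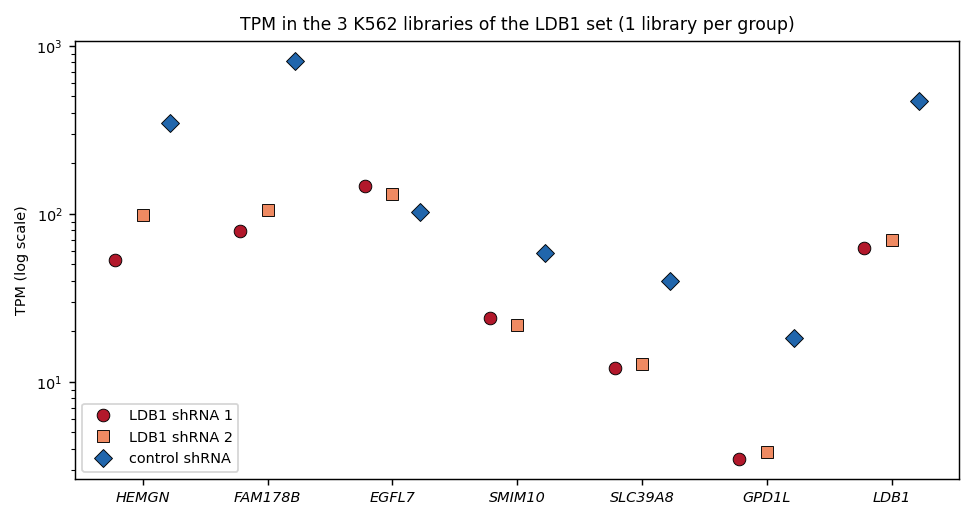
TPM (log axis) of the 6 genes and of LDB1 in the 3 K562 libraries of the LDB1 set, 1 library per group. All but EGFL7 are lower with both LDB1 shRNAs than with the control shRNA.

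**Figure D4:**
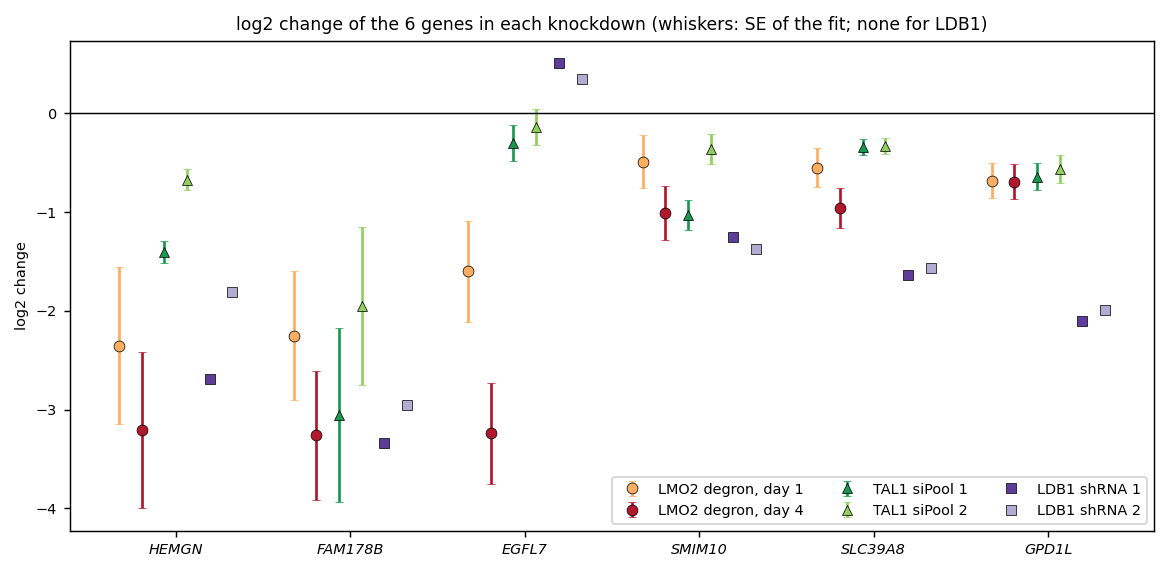
log2 change of each gene with LMO2 degron (days 1 and 4, log2(FPKM + 1)), TAL1 siPools (log2 CPM of the edgeR fit) and LDB1 shRNAs (log2(TPM + 1)), with whiskers for the SE of the fit where replicates exist. The scales differ between sets, so sizes are side by side only; EGFL7 is at -3.24 with the degron on day 4, -0.30 and -0.14 with the TAL1 pools, and above 0 with both LDB1 shRNAs.

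HEMGN, FAM178B, SMIM10, SLC39A8 and GPD1L had lower values in all 3 sets. EGFL7 was far lower in degron lines on day 4, overlapped in HEL and was higher with the LDB1 shRNAs. The sets were normalized apart, so the difference between sets was not tested. Over the 24 K562 libraries HEMGN and FAM178B had Pearson r = 0.97 on log2(FPKM + 1) (0.98 within the 12 libraries of bio rep 1 and 0.96 within bio rep 2), and HEMGN and SLC39A8 had r = 0.94. EGFL7 had r of only 0.37 to 0.53 with the other 5, and these values were 0.09 to 0.45 within bio rep 1 and 0.43 to 0.75 within bio rep 2. The libraries share lines, days and bio reps, so these coefficients describe the set and carry no p.

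Among 7402 genes with a mean of at least 5 FPKM, the pattern most like HEMGN over the 24 libraries was that of PRSS21, a membrane-anchored serine protease (r = 0.975), followed by FAM178B (0.973) and AL355987.5 (0.970). FAM178B was most like CLNS1A, an assembly factor of splicing particles (0.980), FGFR4, a growth factor receptor (0.977), and PRSS21 (0.975). For SLC39A8 they were FAM83D, a spindle protein (0.981), RAB3IL1, a Rab exchange factor (0.971), and LINGO1, a membrane protein of neurons (0.970). For SMIM10 they were MRPS31, a mitochondrial ribosomal protein (0.953), GTF2F2, a subunit of general factor TFIIF (0.950), and SLC25A15, a mitochondrial ornithine carrier (0.949). EGFL7 and GPD1L had no gene of equally close pattern: EGFL7 had RAI14, an actin-associated protein (0.865), TASP1, a protease (0.864), and MIR126 (0.846), which lies within EGFL7, so that reads of the 2 genes cannot be told apart. GPD1L had MECR, an enzyme of mitochondrial fatty acid synthesis (0.867) and FOXK2, a forkhead factor (0.849).

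The 3 nearest protein-coding genes on each side of each gene in the RefSeq table were examined next, since their values did not choose the set. Of 36 neighbours, 26 were tested on day 4, of which 4 fell and 3 rose (4 and 8 with bio rep as a block), beside 8.18% lower and 11.6% higher of all genes. After trimmed-mean rescaling the split over all genes was 1298 higher and 1499 lower, against 1784 and 1256 as deposited. The 4 neighbours that fell did so under all 22 alternatives run. SEMA4C, a semaphorin of cell guidance and the nearest matched gene on one side of FAM178B, averaged 37.7 ± 12.9 FPKM in the degron lines on day 0, 14.6 ± 3.58 on day 1 and 10.7 ± 2.74 on day 4 (SD, n = 4). In the control lines it averaged 32.5 ± 10.4, 30.6 ± 6.02 and 37.1 ± 8.02 FPKM. All degron libraries of days 1 and 4 lay below all control-line libraries of their day, and the degron-specific change was -1.91 ± 0.39 on day 4 (limma adjusted p = 0.00329) and -1.23 ± 0.39 on day 1 (0.363, or 0.0012 with bio rep as a block). ANKRD39, the next gene on that side, an ankyrin repeat protein, averaged 2.77 ± 0.151, 1.51 ± 0.140 and 1.54 ± 0.314 FPKM on the 3 days in degron lines and 2.85 ± 0.257, 2.81 ± 0.367 and 2.88 ± 0.369 FPKM in control lines. It fell by 0.59 ± 0.14 on day 4 (adjusted p = 0.0094) and did not pass on day 1 (0.180, or 0.0148 with the block).

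ANP32B, a histone-binding protein beside HEMGN, fell by 0.89 ± 0.22 on day 4 (adjusted p = 0.0105), at 193 ± 18.7 FPKM in degron lines against 447 ± 70.6 FPKM in control lines. DIPK1B, a kinase-like protein near EGFL7, fell by 0.84 ± 0.17 (adjusted p = 0.00366), at 1.45 ± 0.607 FPKM against 5.59 ± 0.631 FPKM. On day 0 DIPK1B was already in separate ranges, at 3.14 ± 0.966 against 5.23 ± 0.275 FPKM, and ANP32B overlapped, at 358 ± 29.8 against 451 ± 103 FPKM. NOTCH1, a receptor gene on the other side of EGFL7, gave 0.04 ± 0.25 (adjusted p = 0.933) on day 4. The nearest genes on the far side of HEMGN (TRMO, an RNA methyltransferase, 0.25 ± 0.29) and FAM178B (FAHD2B, 0.02 ± 0.26, with a near-identical copy) did not pass either. Next to EGFL7, AGPAT2, an enzyme of phospholipid synthesis, gave 0.47 ± 0.24 (adjusted p = 0.199). Neighbours that rose were MOSPD1 near SMIM10 (0.74 ± 0.24, adjusted p = 0.0402), STT3B (0.39 ± 0.13, 0.0435) and CMTM6 (1.06 ± 0.35, 0.0475) near GPD1L, and their calls were lost under 15, 19 and 17 of 22 alternatives. RTL8C beside SMIM10, which has near-identical copies, gave 0.36 ± 0.16 (0.116). Around SLC39A8, PPP3CA, a calcineurin subunit, gave 0.55 ± 0.20 (0.0626, or 0.00355 with the block) and NFKB1, a transcription factor, 0.26 ± 0.28 (0.561).

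**Figure D5:**
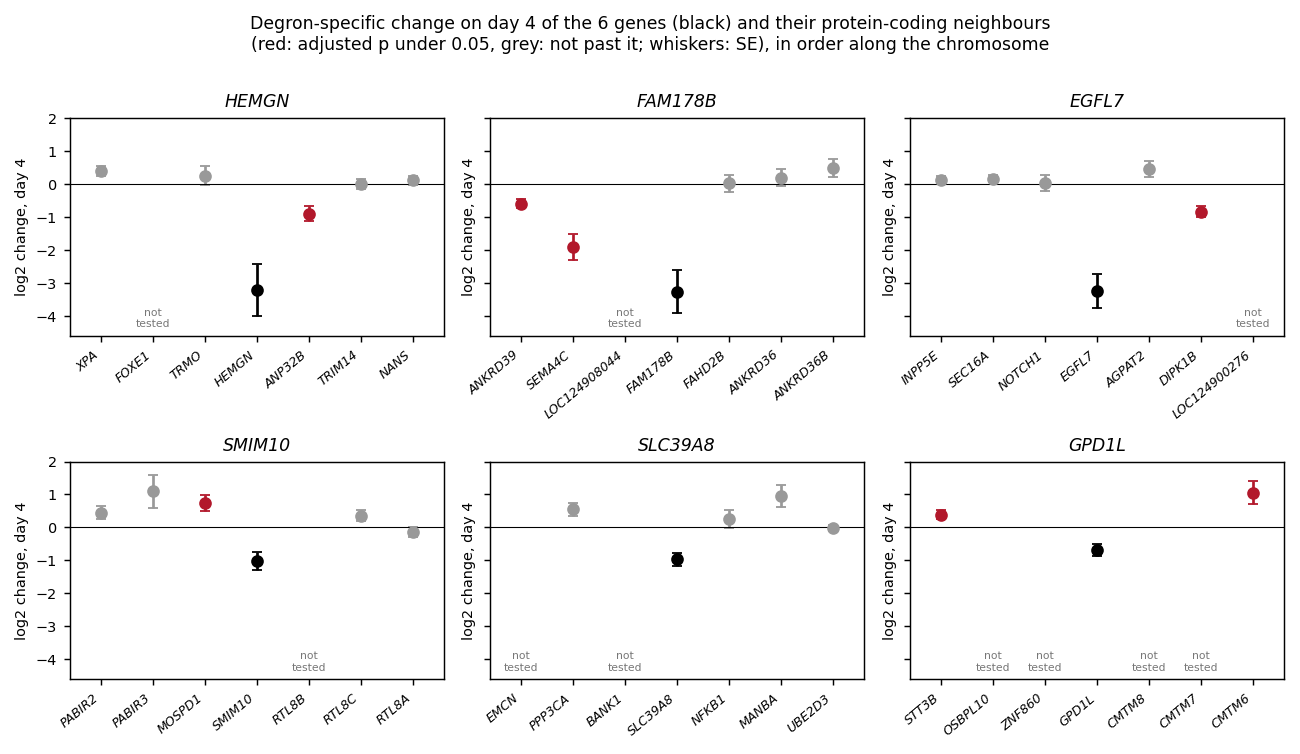
Degron-specific change on day 4 (log2 scale, whiskers SE) of each of the 6 genes (black) and the 3 protein-coding genes on each side, in chromosome order; red points have an adjusted p under 0.05. SEMA4C and ANKRD39, on one side of FAM178B, ANP32B and DIPK1B are the 4 neighbours that fell.

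On day 1 none of the 26 neighbours passed (limma; 3 had an unadjusted p under 0.05, and edgeR on recovered reads called 0), beside 0.0782% of all genes, while SEMA4C and ANKRD39 passed with the block. In HEL, 31 neighbours were tested with the mean of both pools, where CMTM6 was higher (0.43 ± 0.08, edgeR adjusted p = 0.0106, lost without non-targeting replicate 2 or 3) and TRIM14, an antiviral signalling protein near HEMGN, lower (-0.46 ± 0.11, 0.0459, lost under 7 of 13 alternatives). SEMA4C averaged 28.2 ± 2.25 and 24.6 ± 1.94 CPM with siPool 1 and siPool 2, against 21.5 ± 2.46 CPM, and did not pass (0.29 ± 0.11, adjusted p = 0.195). ANP32B was lower with siPool 1 (-0.33 ± 0.07, edgeR adjusted p = 0.018, lost under 4 of 10 alternatives) and did not pass with siPool 2 (-0.07 ± 0.07, 0.787). The neighbours that fell in degron cells had lower TPM with both LDB1 shRNAs, with 1 library per group and no test. SEMA4C was at 79.7 and 121 against 220.0, and ANP32B at 1410 and 1680 against 2470. ANKRD39 was at 10.4 and 12.2 against 17.4, and DIPK1B at 21.2 and 23.2 against 27.8. None of them was at least 2-fold lower in both libraries. The share of all genes lower in both at any size was not counted, so nothing is read from this.

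Lists of genes that work with the 6 were counted in the same fits, beside 8.18% lower and 11.6% higher of all genes on day 4. HEL counts here are from the fit without bio rep as a block. With the block more HEL genes passed, and those counts are given with the processing alternatives below. Of 14 genes of the erythroid program, 6 fell and 1 rose on day 4 (median -1.03; 7 and 1 with the block). KLF1, an erythroid transcription factor, fell by 3.02 ± 0.20 (limma adjusted p = 7.56e-07), UROD, a heme synthesis enzyme, by 1.24 ± 0.12 (1.14e-05), NFE2, a globin gene activator, by 1.57 ± 0.18 (5.36e-05) and GFI1B, a repressor of blood precursors, by 1.15 ± 0.18 (0.00061). In HEL 6 of 12 fell with the mean of the pools and none rose (2.03% of all genes passed, 0.821% in the lower direction). They were led by UROD (-0.51, edgeR adjusted p = 0.00197), EPB42, a red cell membrane protein (-0.53, 0.00277), and ALAS2, the erythroid enzyme that starts heme synthesis (-1.15, 0.00373). By pool, 6 of 12 fell with siPool 1 and 3 with siPool 2. UROD and EPB42 passed with siPool 1 (edgeR adjusted p = 0.000154 and 0.000203). They did not pass with siPool 2 (0.286 and 0.325, or 0.016 and 0.0195 with the block). ALAS2 passed with both pools (0.00966 and 0.0151, lost under 2 and 3 of 10 alternatives). Of 14 genes of the LMO2 complex and its partners, 5 fell and 3 rose on day 4 (median -0.19). GATA1 fell by 0.86 ± 0.13 (adjusted p = 0.000308) and LDB1 by 0.89 ± 0.17 (0.002), SSBP2, which binds LDB1, rose by 0.84 ± 0.15 (0.00126), and TCF3, an E protein, fell by 0.67 ± 0.13 (0.00237). In HEL, 2 of these 14 fell with the mean of the pools, TAL1 itself and CBFA2T3, a corepressor (-0.32, 0.0462, lost under 7 of 13 alternatives).

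Genes known to bind hemogen or to regulate it did not move one way: GATA1 fell, EP300, the acetyltransferase p300, rose by 0.62 ± 0.10 (adjusted p = 0.000848) and HOXB4, a homeobox factor, rose by 0.77 ± 0.15 (0.002). None of these 3 passed in HEL with the mean of the pools (edgeR; 2 had an unadjusted p under 0.05, and DESeq2 called 0), while GATA1 fell with siPool 1 (-0.43 ± 0.11, edgeR adjusted p = 0.0413, lost under 4 of 10 alternatives). Of 5 genes of the FAM178 family and the SMC5/6 complex, SLF2 rose (0.64 ± 0.21, adjusted p = 0.0391) and RAD18, a ubiquitin ligase of DNA repair, fell (0.73 ± 0.24 lower, 0.044), with calls lost under 19 and 14 of 22 alternatives, and none of the 5 passed in HEL with the mean of the pools (edgeR; 1 at an unadjusted p under 0.05, 0 by DESeq2). SLF1, a partner of SLF2, fell with siPool 1 (-0.58 ± 0.15, edgeR adjusted p = 0.0482, lost under 7 of 10 alternatives). Of 6 tested genes of the EGFL and Notch group, 1 fell on day 4 (2 with the block). JAG2, a Notch ligand, fell by 1.02 ± 0.14 (adjusted p = 0.000241), at 1.96 ± 0.214 FPKM in degron lines against 9.93 ± 2.87 FPKM in control lines. HES1 gave -0.95 ± 0.35 (limma adjusted p = 0.0694, or 0.0124 with the block). In HEL none of 8 passed with the mean of the pools (edgeR; 6 had an unadjusted p under 0.05, and DESeq2 called 2).

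Of 9 tested zinc importers other than SLC39A8, 1 fell and 2 rose on day 4 (3 with the block): SLC39A6 rose by 1.29 ± 0.24 (adjusted p = 0.00164), SLC39A3 fell by 0.90 ± 0.22 (0.00917) and SLC39A11 rose by 0.56 ± 0.16 (0.0217, lost under 8 of 22 alternatives). None of 10 passed in HEL with the mean of the pools (edgeR; 0 at an unadjusted p under 0.05 and 0 by DESeq2). Of 7 zinc exporters none passed on day 4 (limma; 3 at an unadjusted p under 0.05, 2 higher and 1 lower with the block, 1 by edgeR on recovered reads), and the one with the highest level, SLC30A9, gave -0.02 ± 0.12 (adjusted p = 0.939). Of 4 metal response genes none passed (limma; 1 at an unadjusted p under 0.05, 1 with the block, 0 by edgeR on recovered reads), with MT2A, a metallothionein, at -0.90 ± 0.98 (0.568). In HEL none of 8 exporters and none of 6 metal response genes passed with the mean of the pools (edgeR; 1 and 0 at an unadjusted p under 0.05, 0 by DESeq2). Of 11 genes of glycerol 3-phosphate metabolism, the pathway of GPD1L, none passed on day 4 (limma; 1 at an unadjusted p under 0.05, 2 higher and 1 lower with the block, 0 by edgeR on recovered reads). PGP, a phosphatase of glycerol 3-phosphate, gave -0.45 ± 0.26 (0.253) and AGPAT1, of phospholipid synthesis, 0.14 ± 0.10 (0.370). None of 12 passed in HEL with the mean of the pools (edgeR; 3 at an unadjusted p under 0.05, 0 by DESeq2). The relative SMIM10L1 gave 0.34 ± 0.37 (0.570), the only one of 3 SMIM10 relatives tested, and none was tested in HEL.

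Markers of other cell types the cultures could hold stayed low in K562. EGFL7 is known from endothelial cells. The summed level of 10 endothelial markers was 1.01 to 3.84 FPKM in degron lines on day 0, 1.49 to 4.94 on day 1 and 1.45 to 3.85 on day 4, against 1.07 to 1.44, 1.21 to 2.23 and 1.08 to 2.40 FPKM in control lines, next to 18.9 to 281 FPKM for EGFL7 in degron lines. In HEL 9 of these markers summed to 697 to 762 CPM with siPool 1 and 767 to 847 CPM with siPool 2, against 694 to 819 CPM. TIE1 (209 to 299 CPM) and ESAM (404 to 496 CPM) make up most of this sum. Within it KDR, a VEGF receptor, averaged 44.9 ± 8.59 and 37.6 ± 2.28 CPM with siPool 1 and siPool 2, against 25.3 ± 6.86 CPM (SD, n = 3 each), and was higher with the mean of the pools (0.70 ± 0.16, edgeR adjusted p = 0.0443) and with siPool 1 (0.83 ± 0.18, 0.0226). TEK, an angiopoietin receptor (0.60 ± 0.15, 0.0434), and VWF, a clotting protein of vessel walls (2.04 ± 0.52, 0.0459), were higher with siPool 1. VWF was near the floor, at 0.413 to 4.06 CPM. KDR, TEK and VWF did not pass with siPool 2 (edgeR adjusted p = 0.211 to 0.746). CDH5 (-0.01 ± 0.21), TIE1 (0.02 ± 0.10), ESAM (-0.20 ± 0.07) and ROBO4 (0.42 ± 0.27) did not pass with siPool 1 (0.149 to 0.988). No alternatives are given for these marker calls. The part of the endothelial markers in the EGFL7 values was not tested. The summed levels of 3 megakaryocyte markers in K562 reached at most 2.04 FPKM in degron lines and 5.42 FPKM in control lines, and in HEL they were 844 to 1280 CPM with the TAL1 pools against 876 to 1190 CPM. Lymphoid markers (3) reached at most 2.95 FPKM and 0.172 CPM, with MS4A1 at 0 in every library, and fibroblast markers (3) at most 2.82 FPKM and 0.472 CPM.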

How the data were processed

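Gene expression was measured by RNA sequencing of Trizol-extracted RNA in 36 libraries. The submitters' processing notes name the build hg19 and the tools STAR, featureCounts and FastQC. No source used here gives versions, annotation or strand setting. The authors deposited FPKM per gene for the 24 K562 degron libraries, raw counts per gene for the 9 HEL libraries and TPM per gene for the 3 LDB1 libraries, each as a table of its own, so comparisons were made within a table only.

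From the deposited values the following was computed in R 4.3.3. FPKM were tested as log2(FPKM + 1) with limma 3.58.1, over genes at 1 FPKM or more in at least 2 libraries (15348 genes), with all 12 groups in the fit. For the HEL libraries, raw counts entered the quasi-likelihood test of edgeR 4.0.16 after filterByExpr (16688 genes), and CPM are scaled to library size. The SE of an edgeR value is its size divided by the square root of F. TPM were compared as ratios of (TPM + 1) over 12445 genes with at least 5 TPM in the highest library. P-values were adjusted by Benjamini-Hochberg over all genes, with a threshold of 0.05. Whole reads could be recovered from the FPKM for 100.0% of 40929 genes above 0, within 0.05 reads, which gave the depths and an edgeR alternative added after seeing the data. Both scripts were tested on simulated data.

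Same-numbered K562 bio reps deviated together (66 pairs of groups, r 0.12 to 0.66, median 0.38), so bio rep as a block is given where it changes a call or count. Alternatives were another pseudocount or filter, trimmed-mean rescaling, DESeq2 1.42.0 and its size factors, parental cells as the only control, the block, and each library left out.

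For the 6 genes the differences between degron lines and between pools had been planned as tests and are given as descriptions, since the same libraries chose the genes. The 6 genes and all gene lists were chosen with earlier results of these data known. Other genes named were the 3 of most like pattern per gene, the nearest tested neighbours and any neighbour called, and up to 4 per list, by smallest adjusted p if called and otherwise by level. Of these, 1 gene of the erythroid lists, left out of their sums and counts, and 1 like-pattern gene are not reported here. Intervals cover counting error only.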

Additional observations from a re-analysis of the deposited data

Results flagged for a closer look

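HEMGN and SMIM10 differed between the TAL1 siPools in HEL cells, in siPool 1 minus siPool 2. Both are listed because they passed the threshold in this edgeR comparison, as 2.76% of all genes did. The falls that chose the genes were measured in these same libraries, so no p-value is given and passing is not read as a result. HEMGN differed by -0.73 on the log2 scale, with all 3 siPool 1 libraries below all 3 siPool 2 libraries. SMIM10 differed by -0.67, also with all 3 libraries below. The share of all genes with this order of libraries was not counted, so nothing is read from it. In the 6 fits that each left out 1 library, SMIM10 passed only without siPool 1 replicate 1. TAL1 RNA itself averaged 179 ± 12.8 CPM with siPool 1 and 188 ± 7.83 CPM with siPool 2 (SD, n = 3). EGFL7 moved in opposite directions in the K562 lines. In both bio reps of both degron lines it was lower on day 4 than on day 0, by 3.42-fold and 7.53-fold in line 1 and 5.96-fold and 9.16-fold in line 2. In both bio reps of the LMO2 control line (1.63 and 1.27 times day 0) and of parental cells (1.59 and 1.98 times) it was higher. The change in degron lines minus control lines was -3.24 on the log2 scale, and this difference was not tested, since the contrast chose the gene. No group holds enough libraries to test a single one against the others.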

How the results depend on the processing

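For the K562 day 1 change, 12 genes passed, against 45 with no filter, 167 with bio rep as a replicate block, 0 with parental cells as the only control (limma; 669 at an unadjusted p under 0.05) and 1 to 12 with a library left out. On day 4, 3040 passed, against 5471 with the block and 1763 with parental cells only. For degron line 2 minus line 1, 2 passed, against 1 with a pseudocount of 0.1, 65 with no filter, 4 with the block, 1 by edgeR on recovered reads and 1 at the lowest with a library left out. For LMO2 control minus parental, 280 passed, against 426 with no filter, 711 with the block and 124 to 221 with a library left out. In HEL, siPool 1 gave 704, against 1058 by DESeq2, 1084 with no filter, 2888 with the block and 279 to 722 with a library left out. SiPool 2 gave 176, against 363, 418, 1694 and 35 to 296 in the same order, the mean of pools 338, against 693, 716, 2437 and 104 to 570, and the difference of pools 461, against 786, 758, 2431 and 128 to 592. With an LDB1 log2 ratio of at least 0.5, 4172 genes passed.

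Directions turned for SLC39A8 in the line difference (-0.36 with the pseudocount, -0.49 on recovered reads) and EGFL7 (-1.18 to 0.10 with a library left out). In LMO2 control minus parental they turned for HEMGN (-0.02 rescaled, -0.29 on recovered reads, -0.97 to 1.11 left out), FAM178B (-1.22 to 0.60) and GPD1L (-0.20 to 0.07). In HEL they turned for EGFL7 with siPool 2 (-0.30 to 0.02), and between pools for SLC39A8 (0.0 with DESeq2 size factors or no filter, -0.04 to 0.05 left out) and GPD1L (-0.23 to 0.08). None of these was called. The causes were not tested. The block changed no call of the 6 genes in LMO2 control minus parental. In HEL same-numbered libraries deviated together at r 0.32 to 0.36 for replicate 1, and only at 0.09 to 0.16 for replicates 2 and 3. Of 9 libraries, 6 correlated best with their own number. The labels do not say what same-numbered libraries share, and the main HEL fit held no block. With the mean of the pools the block called 10 of the 12 erythroid genes lower, against 6. Of the EGFL and Notch group it called 5 higher and 1 lower, against 0. Among the other lists it called GATA1 lower of the 3 hemogen genes and RAD18 lower of the 5 FAM178 and SMC5/6 genes, against 0. It called 1 zinc exporter higher and 1 lower, and 1 glycerol 3-phosphate gene higher and 2 lower, against 0. Of the LMO2 complex it called 2 higher and 4 lower, against 0 and 2. Of the 31 neighbours it called 5 higher and 3 lower, against 1 and 1. Over all genes it called 1188 higher and 1249 lower. A group left with 1 library is assumed to vary like the others. Few reads limit FAM178B in HEL.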

Other observations

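Metallothioneins, small proteins that bind zinc and other metals, stood higher in both LDB1 shRNA libraries, in which the metal importer SLC39A8 was lower. MT2A was at 185 and 396 TPM with LDB1 shRNA 1 and shRNA 2, against 57.4 TPM with the control shRNA. MT1X was at 82.9 and 162 TPM against 20.8 TPM, and MT1G at 43.0 and 80.6 TPM against 7.25 TPM. All 3 were higher with shRNA 2 than with shRNA 1. These genes have near-identical copies, so their reads are uncertain, and with 1 library per group there is no test. In degron lines on day 4, MT2A gave -0.90 ± 0.98 (limma adjusted p = 0.568) and MT1G 0.14 ± 0.43 (0.853). These genes were singled out after their values were seen, and values of MT1E and MT1F, also metal response genes, are not given. At least 2-fold higher in both LDB1 shRNA libraries were 1113 of all 12445 genes. In HEL, where SLC39A8 was also lower, the median of 6 metal response genes was -0.50 with siPool 1 and 0.09 with siPool 2. None of the 6 passed with either pool (edgeR, or 1 lower with siPool 1 and the block). A link to SLC39A8 was not tested.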
